A study of Mus musculus with 59 samples.

Results

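Bone morphogenetic protein (BMP) signalling was followed through 10 genes: the antagonist Noggin (Nog), the ligands Bmp4 and Bmp2, the receptors Bmpr1a and Bmpr2, the signal transducers Smad1 and Smad5, and the target genes Id1, Id2 and Id3. They were taken by symbol from a deposited table of 47643 gene symbols, and all 10 were found there. BMP ligands bind pairs of type I and type II serine/threonine kinase receptors on the cell surface, and the activated receptors phosphorylate Smad1 and Smad5, which enter the nucleus with Smad4 and switch on genes such as those of the Id family. Noggin is a secreted protein that traps BMP ligands before they reach their receptors. In adult skeletal muscle the pathway is known to favour the maintenance of muscle mass and to oppose myostatin-type signalling, and mRNA levels of its components do not report the phosphorylation of Smads.

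The libraries came from female mice of the NCI Ath/nude strain, 4 months old, all of which carried 1 of 2 patient-derived human melanomas. The first induces cachexia, a wasting of the body, and mice with the second serve as non-cachectic controls, so that the tumour of origin and cachexia cannot be told apart, and mice without a tumour were not analysed here. Diaphragm was sampled after mock injections (vehicle alone; 10 cachectic and 9 non-cachectic mice) and after injections of rFibcd1, a recombinant fragment of the secreted protein Fibcd1 (10 cachectic and 10 non-cachectic mice), whereas tibialis anterior and soleus came from 5 cachectic and 5 non-cachectic mice each, with no rFibcd1 in their labels. The 59 libraries thus formed 8 groups.

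Values are in TPM, a unit of transcript abundance. They take transcript length into account and sum to the same total in each library, so the depth of sequencing is unknown. Fold changes were computed on log2(TPM + 1), which understates changes of low genes. A gene was called when the adjusted p of limma, over all genes tested, was below 0.05. The muscle labels were borne out by myosin genes, because Myh4 (fast fibres) averaged 11178 ± 2436 TPM (SD, n = 5) in non-cachectic tibialis anterior and 14.8 ± 8.17 TPM (n = 5) in soleus, and Myh7 (slow fibres) averaged 0.849 ± 0.856 and 4945 ± 564 TPM. Libraries differed in composition along with the melanoma: mitochondrial transcripts took 48.5% ± 1.80 (SD, n = 5) of TPM in non-cachectic and 38.8% ± 8.12 (n = 5) in cachectic tibialis anterior. These shares were 47.5% ± 2.97 (n = 9) and 38.1% ± 3.18 (n = 10) in mock diaphragm, and 41.1% ± 2.00 (n = 5) and 30.5% ± 3.92 (n = 5) in soleus. The median log2 fold change of all genes was 0.41 in tibialis anterior, 0.20 in mock diaphragm and 0.09 in soleus. Fold changes are therefore also given after median-ratio scaling, which sets the typical gene near 0.

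The promoters of 7 of the 10 genes were found in a RefSeq table (GRCm38.p6), as windows from 250 bases before to 50 bases after a transcription start. Nog, Bmp2 and Id1 had no entry. The windows of the Id targets and of Smad1, the transducer that was called in each of the 3 muscles, are shown 5′ to 3′ on the strand of the gene, with capitals for matches on either strand to letters known from BMP-responsive elements: GGCGCC, and GTCTG (or its complement CAGAC).
Id2 (chr12:25096043-25096342, minus strand): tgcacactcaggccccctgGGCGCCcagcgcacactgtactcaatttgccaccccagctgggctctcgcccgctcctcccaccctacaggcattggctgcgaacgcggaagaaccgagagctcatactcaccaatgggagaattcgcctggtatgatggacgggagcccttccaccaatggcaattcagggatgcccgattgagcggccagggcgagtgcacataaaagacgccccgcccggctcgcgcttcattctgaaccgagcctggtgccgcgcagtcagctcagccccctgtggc
Id3 (chr4:136143572-136143871, plus strand): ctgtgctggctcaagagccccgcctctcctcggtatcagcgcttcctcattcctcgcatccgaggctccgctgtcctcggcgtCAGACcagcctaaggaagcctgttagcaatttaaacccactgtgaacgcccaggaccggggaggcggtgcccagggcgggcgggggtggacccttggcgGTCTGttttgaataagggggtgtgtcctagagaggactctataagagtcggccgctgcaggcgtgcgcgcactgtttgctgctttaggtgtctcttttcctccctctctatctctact
Smad1 (chr8:79399379-79399678, minus strand): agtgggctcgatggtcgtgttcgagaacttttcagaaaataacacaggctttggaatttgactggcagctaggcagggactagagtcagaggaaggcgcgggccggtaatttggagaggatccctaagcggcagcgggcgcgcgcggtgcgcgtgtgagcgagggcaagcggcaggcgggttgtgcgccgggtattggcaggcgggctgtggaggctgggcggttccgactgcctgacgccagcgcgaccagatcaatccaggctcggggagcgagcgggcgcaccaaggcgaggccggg
GGCGCC began at base 20 of the Id2 window, the complement CAGAC at base 84 and GTCTG at base 183 of the Id3 window, and neither set of letters was in the Smad1 window. Of 32851 windows of this length in the table, 11.9% held GGCGCC and 49.6% held GTCTG on either strand. GGCGCC was in 5 of the 9 windows of these genes, of which 2 were overlapping windows of Smad5, and the others were those of Bmpr1a, Bmpr2 and Id2. GTCTG was in 2 of the 9, those of Id3 and another window of Smad5.

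Nog is a single-exon gene on chromosome 11 (89300638 to 89302332, minus strand, GRCm38), and no other annotated gene overlaps it. In tibialis anterior its levels in the 5 cachectic libraries were 17.9, 18.5, 20.3, 22.6 and 26.6 TPM, against 2.84, 2.88, 3.69, 3.95 and 5.18 TPM in the 5 non-cachectic libraries. The groups were far apart, with the lowest cachectic value above the highest non-cachectic value, and the means (21.2 ± 3.55 and 3.71 ± 0.955 TPM) differed 5.71-fold. On the log2 scale Nog rose by 2.25 (SE 0.16, limma adjusted p = 5.11e-06), or by 1.80 after median-ratio scaling.

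In mock diaphragm the 10 cachectic libraries ranged from 8.89 to 25.6 TPM (median 17.6) and the 9 non-cachectic libraries from 6.10 to 8.62 TPM (median 7.56). The ranges did not overlap here either. Nog rose 2.28-fold on the mean (log2 1.04, SE 0.21, adjusted p = 0.000484), or by 0.83 after median-ratio scaling (adjusted p = 0.0140). With rFibcd1 the 10 cachectic libraries spread from 5.24 to 24.1 TPM (median 13.1) and the 10 non-cachectic libraries from 3.70 to 8.45 TPM (median 5.52). Nog rose there as well (log2 1.01, SE 0.21, adjusted p = 0.00295), although the ranges overlapped. The difference was 0.62 with array weights (adjusted p = 0.0378), and the call was lost with the Dunn test (adjusted p = 0.0905) and in libraries with at least 1 TPM of the pseudogene Pcna-ps2 alone (0.87, adjusted p = 0.299).

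Soleus differed from the other muscles. The 5 cachectic libraries had 3.59, 4.66, 5.96, 6.26 and 6.31 TPM of Nog and the 5 non-cachectic libraries 4.68, 5.55, 6.01, 6.04 and 7.24 TPM. The groups overlapped almost entirely, and the log2 difference was -0.13 (95% interval -0.45 to 0.19, adjusted p = 0.551). Over the 8 groups the mean Nog level was highest in cachectic tibialis anterior and lowest in non-cachectic tibialis anterior. No neighbours in that order were separated by more than their SDs, whereas the order placed the 3 cachectic tibialis anterior and diaphragm groups first.

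**Figure D1:**
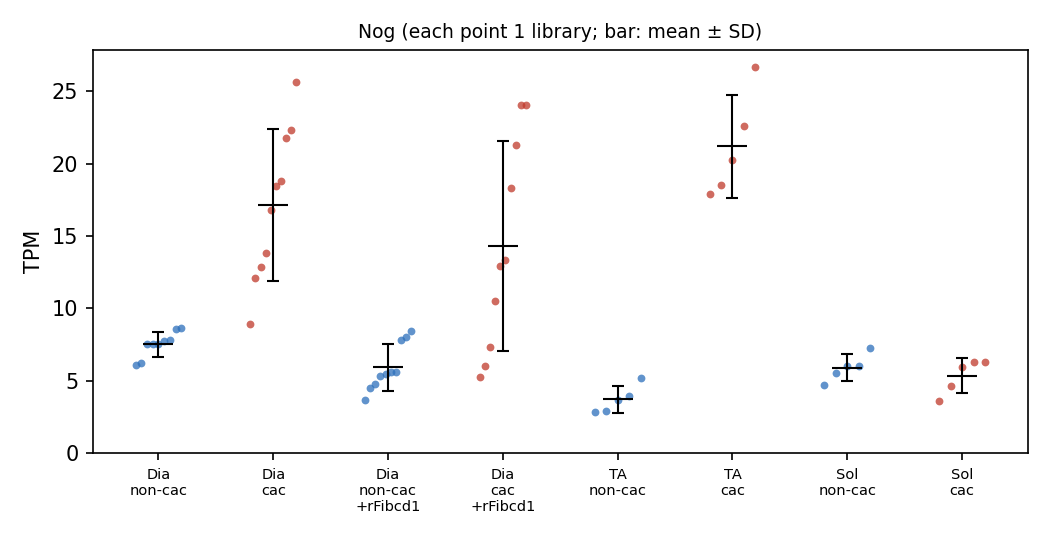
Nog level in each library (vertical axis, TPM) for the 8 groups (horizontal axis; Dia, diaphragm; TA, tibialis anterior; Sol, soleus; cac, cachectic), with the mean and SD of each group. Cachectic tibialis anterior lies between 17.9 and 26.6 TPM and non-cachectic tibialis anterior between 2.84 and 5.18 TPM, while the soleus groups overlap.

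The difference between muscles was itself tested in a fit of the 6 groups without rFibcd1. The melanoma effect on Nog was larger in tibialis anterior than in soleus by 2.38 on the log2 scale (SE 0.26, adjusted p = 1.68e-07), larger in diaphragm than in soleus by 1.17 (SE 0.23, adjusted p = 0.00276), and smaller in diaphragm than in tibialis anterior (log2 -1.21, SE 0.23, adjusted p = 0.00142). All 3 differences were called after median-ratio scaling too, at 2.05, 1.02 and -1.03. The numbers in the column names recur between muscles, and same-numbered libraries deviated together from their group means (Pearson r over genes above 0.1 in 10 of 10 pairs of diaphragm with tibialis anterior, 10 of 10 of tibialis anterior with soleus and 8 of 10 of diaphragm with soleus). These comparisons share groups with each other and with the effects within each muscle. They called 2 of the 10 genes for diaphragm against tibialis anterior (5.04% of all genes tested were called), 1 of 10 for diaphragm against soleus (2.52% of all genes) and 3 of 10 for tibialis anterior against soleus (20.4% of all genes). Besides Nog these were Bmp4 (-0.62 for diaphragm against tibialis anterior and 0.90 for tibialis anterior against soleus) and Bmp2 (0.59 for tibialis anterior against soleus, adjusted p = 0.0183). Bmp2 failed the filter in tibialis anterior alone and entered this fit through the other muscles, so its difference rests on levels near 1 TPM. After median-ratio scaling Bmp4 was no longer called for diaphragm against tibialis anterior (-0.44, adjusted p = 0.0656), nor was Bmp2 for tibialis anterior against soleus (0.41, adjusted p = 0.0800), and Bmp4 was at 0.58 there (adjusted p = 0.0194), whereas Bmpr2 was called, at 0.58 (adjusted p = 0.00178) and -0.55 (adjusted p = 0.00554). Without the cachectic tibialis anterior library with the highest Bmp4 the Bmp4 difference between diaphragm and tibialis anterior was -0.52 (adjusted p = 0.0737). With the column number as a block, 5 members were called for diaphragm against tibialis anterior (17.2% of all genes) and 7 for tibialis anterior against soleus (41.2% of all genes). The added ones were Bmpr2 (0.38, adjusted p = 0.0258), Smad1 (-0.42, adjusted p = 0.0171) and Smad5 (-0.40, adjusted p = 0.0217) in the former, and Smad1, Smad5, Id1 and Id3 in the latter. After median-ratio scaling Smad5 was at -0.19 (adjusted p = 0.129) and 0.04 (adjusted p = 0.814) in these comparisons.

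Libraries also differed in Pcna-ps2, a processed pseudogene, in a way that went with the melanoma. It was at 1 TPM or above in 9 of 10 cachectic and 3 of 9 non-cachectic mock diaphragms, and in all cachectic and no non-cachectic limb libraries. In the limb muscles this state and the melanoma cannot be told apart. Among mock diaphragms with high Pcna-ps2, Nog ranged from 8.89 to 25.6 TPM in the 9 cachectic and from 7.51 to 7.72 TPM in the 3 non-cachectic libraries, and in the only cachectic library with low Pcna-ps2 it was 21.8 TPM. The log2 difference was 0.98 in the high libraries alone, close to 1.04 in all, but was not called with so few libraries (adjusted p = 0.0776). With the state as a term in the fit it was 1.13 (adjusted p = 0.00179).

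Across all members, 3 of 10 were called in mock diaphragm, all higher in cachectic mice, where 33.5% of all genes tested were called and 30.9% were called higher. In tibialis anterior 4 of the 9 tested were called, again all higher (60.2% of all genes called, 56.4% higher), and in soleus 1 of 10 was, also higher (25.1% called, 17.5% higher). In diaphragm with rFibcd1, 2 of 10 were called, both higher (9.11% called, 7.14% higher). In tibialis anterior the members' median log2 fold change of 0.17 there stood beside 0.41 over all genes. In mock diaphragm the medians were 0.19 and 0.20, and in soleus -0.20 and 0.09. Among the members in diaphragm with rFibcd1, the call of Smad1 (log2 0.34, adjusted p = 0.0480) was lost when any of 26 of the 39 libraries was left out, while Nog kept its call each time.

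**Figure D2:**
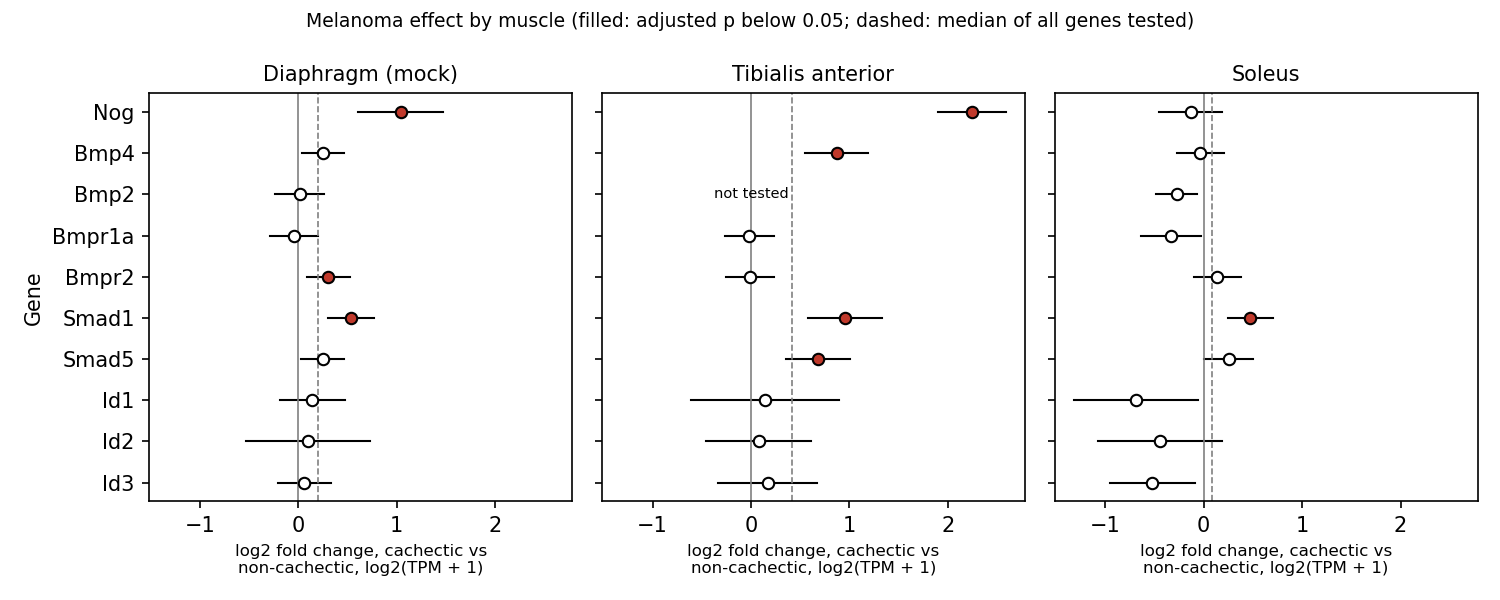
Log2 fold change of each gene (horizontal axis, cachectic against non-cachectic, log2(TPM + 1) scale) with its 95% interval in mock diaphragm, tibialis anterior and soleus. Filled points passed the adjusted p threshold and dashed lines are the median of all genes tested. Nog lies at 1.04, 2.25 and -0.13, Smad1 is filled in all 3 panels, and the Id genes in none.

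Among the ligands, Bmp4 (chromosome 14, 46383520 to 46390669, minus strand, GRCm38) was the more abundant. Its levels were 4.98, 6.02, 7.13, 8.10 and 9.35 TPM in cachectic tibialis anterior and 3.04, 3.25, 3.37, 3.44 and 3.75 TPM in non-cachectic tibialis anterior, without overlap. Bmp4 rose 2.11-fold there (log2 0.87, SE 0.15, adjusted p = 0.00136, and 0.45 after median-ratio scaling, adjusted p = 0.00380), so ligand and antagonist transcripts were both higher in the same muscle. In mock diaphragm Bmp4 spanned 13.8 to 24.4 TPM (median 19.996) in cachectic and 12.9 to 20.1 TPM (median 16.0) in non-cachectic mice, and the difference did not pass (log2 0.25, adjusted p = 0.0645). In soleus it was 5.74, 6.04, 6.40, 6.83 and 7.86 TPM against 5.75, 6.23, 6.33, 7.43 and 8.06 TPM, with a log2 difference of -0.03 (95% interval -0.27 to 0.21). An antisense gene and a second coding gene model overlap Bmp4 on the opposite strand, and the use of strand in counting is not given in the sources used here.

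Bmp2 was close to the limit of the filter. In tibialis anterior it was not tested, since too few libraries reached 1 TPM, and its levels were 0.760, 0.886, 1.04, 1.07 and 1.65 TPM in cachectic and 0.527, 0.545, 0.569, 0.821 and 0.827 TPM in non-cachectic mice. The lowest cachectic value lay among the non-cachectic values and the other 4 above them. In soleus the cachectic libraries (0.898, 1.04, 1.24, 1.30 and 1.49 TPM) all lay below the non-cachectic ones (1.54, 1.62, 1.63, 1.66 and 1.74 TPM), yet the log2 difference of -0.27 (SE 0.09) did not pass (adjusted p = 0.0552). After median-ratio scaling it passed (-0.33, adjusted p = 0.0134).

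The type I receptor Bmpr1a was not called in any melanoma comparison of a single muscle on TPM as deposited. Its mean was 31.7 ± 3.36 TPM (SD, n = 5) in cachectic and 32.0 ± 3.14 TPM (n = 5) in non-cachectic tibialis anterior, and 20.8 ± 3.69 and 26.5 ± 4.41 TPM in soleus, where the log2 difference was -0.33 (adjusted p = 0.0971). The type II receptor Bmpr2, whose levels ranged from 8.60 to 16.8 TPM (median 11.8) in cachectic and from 8.60 to 11.05 TPM (median 9.32) in non-cachectic mock diaphragm, rose in that muscle by a log2 of 0.31 (SE 0.11, adjusted p = 0.0252). This rise was little larger than the median of all genes, and it was 0.09 (adjusted p = 0.414) after median-ratio scaling. Leaving out either of 2 cachectic libraries, 1 of them the highest, also ended the call (log2 0.26 and 0.28, adjusted p = 0.0568 and 0.0510). In tibialis anterior the difference of Bmpr2 was -0.01 (95% interval -0.25 to 0.23) as deposited, but -0.48 (adjusted p = 0.00543) after median-ratio scaling, which also put Bmpr1a at -0.50 (adjusted p = 0.00767). Bmpr1a passed in soleus too with that scaling (-0.43, adjusted p = 0.0255). With that scaling 6 of the 9 members were called in tibialis anterior (40.2% of all genes were) and 2 of 10 in mock diaphragm (15.9% of all genes).

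Of the transducers, Smad1 (chromosome 8, 79338395 to 79399518, minus strand, GRCm38) rose in all 3 muscles. In soleus it was 7.13, 7.63, 7.87, 8.51 and 10.1 TPM in cachectic and 5.11, 5.19, 5.37, 6.06 and 6.43 TPM in non-cachectic mice, so the groups did not overlap (1.46-fold, log2 0.47, SE 0.10, adjusted p = 0.00712). In tibialis anterior it was 5.29, 5.33, 5.56, 5.71 and 11.1 TPM against 2.63, 2.73, 2.77, 2.81 and 2.99 TPM. One cachectic library stood well above the other 4, which lay close together, and the groups were again apart (log2 0.95, SE 0.17, adjusted p = 0.00196). Without that library the log2 difference was 0.77. In mock diaphragm Smad1 ranged from 6.27 to 9.69 TPM (median 7.71) and from 4.31 to 6.27 TPM (median 4.96), with the ranges meeting but not overlapping (log2 0.53, SE 0.12, adjusted p = 0.000766). Median-ratio scaling gave 0.39, 0.54 and 0.34 in soleus, tibialis anterior and diaphragm, and Smad1 was called in each. The differences of its melanoma effect between muscles did not pass (adjusted p = 0.0516 for tibialis anterior against soleus, 0.0986 for diaphragm against tibialis anterior and 0.896 for diaphragm against soleus). With the block the first passed (0.48, adjusted p = 0.00458) and so did the second (-0.42, adjusted p = 0.0171), but median-ratio scaling put them at 0.17 (adjusted p = 0.369) and -0.24 (adjusted p = 0.168).

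Smad5 was called in tibialis anterior, with 13.7, 15.2, 15.4, 17.4 and 25.5 TPM in cachectic and 9.68, 10.0, 10.2, 10.2 and 11.2 TPM in non-cachectic libraries. The groups did not overlap (1.70-fold, log2 0.68, SE 0.15, adjusted p = 0.00461, and 0.21 after median-ratio scaling, adjusted p = 0.00796). The highest Smad5 and Smad1 values came from the same library, which had the highest value of its group for all members but Id2. Mitochondrial transcripts took 25.1% of TPM in it and 38.9% to 45.6% in the other 4. In that library the summed level of 5 macrophage markers was 51.0 TPM, against a median of 19.96 TPM in the 5 cachectic libraries, and the summed level of 6 genes that rise after denervation was 97.4 TPM against a median of 21.1 TPM. In soleus Smad5 was 13.5, 17.2, 17.3, 19.8 and 20.1 TPM against 13.5, 13.6, 14.04, 14.1 and 17.4 TPM, and the log2 difference of 0.25 did not pass (adjusted p = 0.123). In mock diaphragm the difference of Smad5 was 0.25 as well (adjusted p = 0.0742), and it passed with array weights (adjusted p = 0.00505), with only the groups compared (adjusted p = 0.00739) and with the Dunn test (adjusted p = 0.0459). In that muscle the difference of Bmp2 was 0.01 (adjusted p = 0.943) and that of Bmpr1a -0.05 (adjusted p = 0.786).

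**Figure D3:**
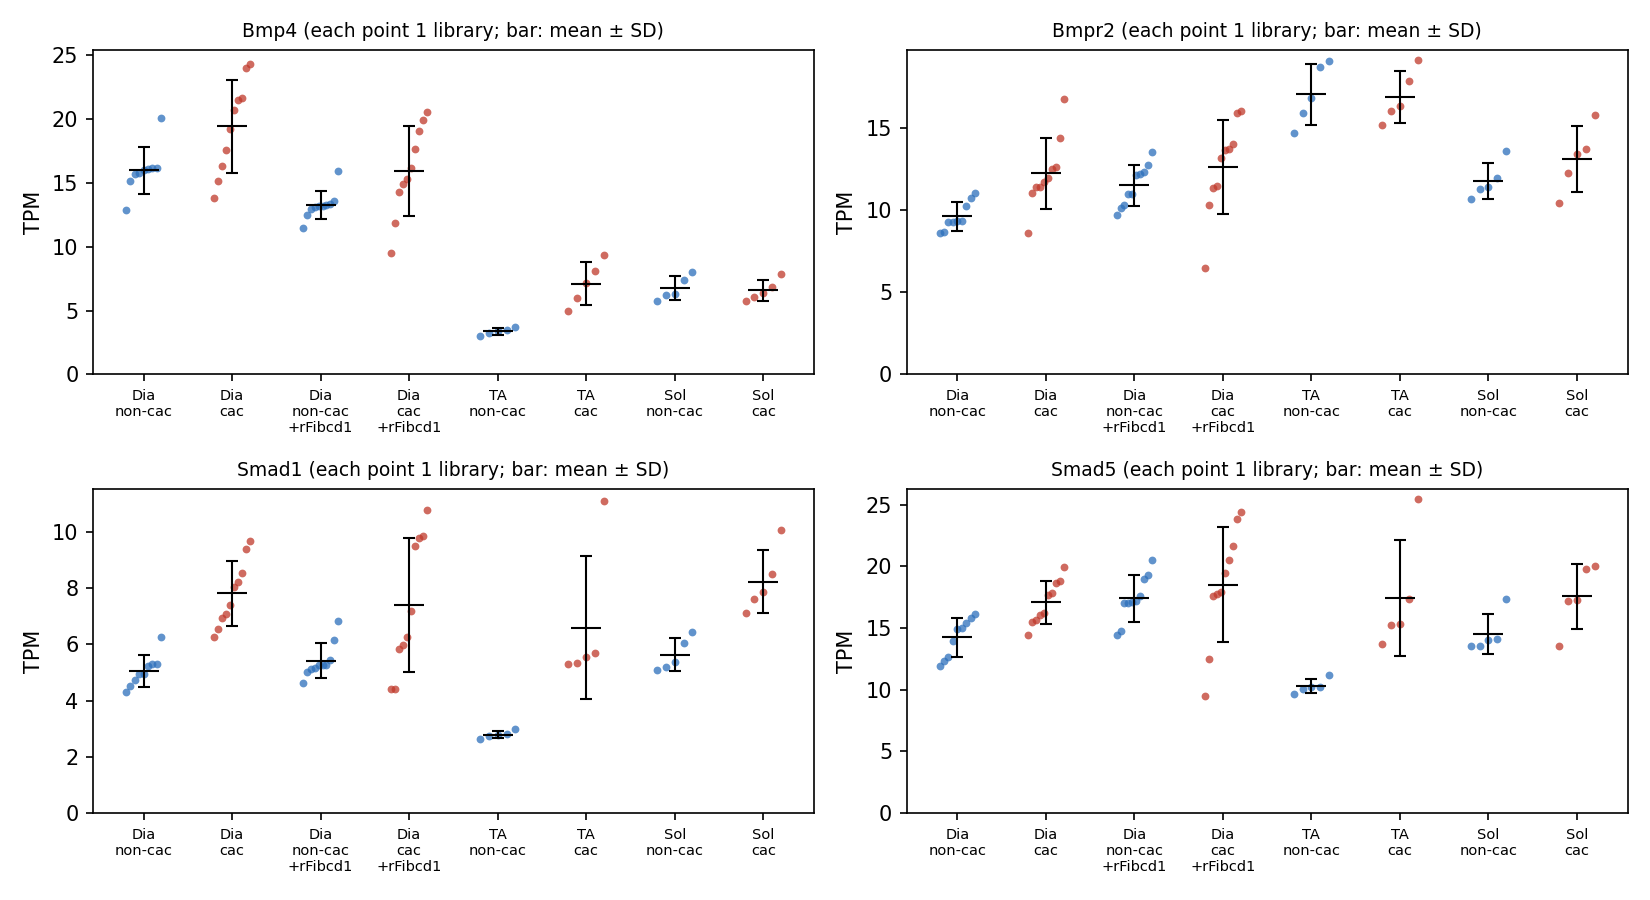
Levels of Bmp4, Bmpr2, Smad1 and Smad5 in each library (vertical axis, TPM) for the 8 groups (horizontal axis), with the mean and SD. Smad1 and Smad5 in cachectic tibialis anterior have 1 library, at 11.1 and 25.5 TPM, far above the others, and every cachectic value of Bmp4, Smad1 and Smad5 in that muscle exceeds the non-cachectic values.

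The Id genes encode helix-loop-helix proteins without a DNA-binding region that block differentiation factors, and they are widely used as a readout of BMP signalling. None of the 3 was called between the melanomas within any of the muscles on TPM as deposited, also where Nog rose. In tibialis anterior Id1 was 11.6, 12.2, 15.6, 18.8 and 21.4 TPM in cachectic and 4.69, 13.2, 16.8, 17.5 and 27.3 TPM in non-cachectic mice, with means of 15.9 TPM in both groups. The log2 difference was 0.14 with a 95% interval of -0.61 to 0.89, so changes within that interval were compatible with the values. Id2 was 1.96, 2.82, 3.72, 4.47 and 8.02 TPM against 3.00, 3.09, 3.56, 4.06 and 4.35 TPM (log2 0.08, 95% interval -0.46 to 0.61). Id3 was 13.1, 16.2, 17.7, 17.9 and 31.5 TPM against 10.5, 15.6, 16.6, 17.6 and 23.8 TPM (log2 0.17, 95% interval -0.34 to 0.67). After median-ratio scaling the signs of the 3 turned, to -0.33, -0.31 and -0.31, and none was called.

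In mock diaphragm Id1 spanned 24.4 to 54.4 TPM (median 35.3) in cachectic and 13.7 to 49.97 TPM (median 35.0) in non-cachectic mice. Id2 spanned 7.50 to 23.5 TPM (median 13.6) and 5.79 to 23.5 TPM (median 12.9), and Id3 26.5 to 58.8 TPM (median 34.2) and 26.4 to 42.2 TPM (median 39.4). The groups overlapped for each gene. The log2 differences were 0.14 for Id1 (95% interval -0.19 to 0.47), 0.10 for Id2 (-0.53 to 0.72) and 0.06 for Id3 (-0.21 to 0.33), and all 3 were below 0 after median-ratio scaling (-0.08, -0.12 and -0.17). In non-cachectic diaphragm with rFibcd1 Id2 was 17.7 to 26.95 TPM in the 6 libraries with high and 6.19 to 8.79 TPM in the 4 with low Pcna-ps2. In cachectic diaphragm with rFibcd1 it was 10.7 to 50.9 TPM in the 8 high and 4.42 to 7.01 TPM in the 2 low libraries. After mock injection the 3 high (12.9 to 19.5 TPM) and 6 low non-cachectic libraries (5.79 to 23.5 TPM) overlapped. The only low cachectic library there (7.94 TPM) lay within the range of the 9 high ones. With that state as a term the melanoma difference of Id2 in mock diaphragm was -0.51 (adjusted p = 0.178).

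Soleus had the lowest Id values relative to its controls. Id1 was 16.4, 16.5, 23.9, 28.9 and 32.3 TPM in cachectic and 17.9, 35.7, 39.1, 53.2 and 53.8 TPM in non-cachectic soleus, and Id3 was 13.7, 23.8, 25.5, 27.1 and 30.5 TPM against 26.5, 29.6, 33.9, 39.8 and 42.8 TPM. A single non-cachectic library accounted for the overlap in Id1. The log2 differences were -0.69 (SE 0.29) for Id1 and -0.52 (SE 0.20) for Id3, with unadjusted p of 0.0345 and 0.0220, and neither passed after adjustment (0.1002 and 0.0735). Id2 was 2.60, 3.00, 7.27, 7.54 and 9.25 TPM against 6.33, 6.47, 7.01, 8.37 and 10.8 TPM (log2 -0.44, adjusted p = 0.279). After median-ratio scaling Id3 passed (-0.62, adjusted p = 0.0166), and 4 of the 10 members were called in soleus (28% of all genes were). Soleus, where Nog did not rise, was the muscle with lower mean Id levels in cachectic mice, but the difference of the Id1 and Id3 effects between muscles did not pass (adjusted p = 0.169 and 0.103 for tibialis anterior against soleus). With the block for column number both passed, at the same log2 differences of 0.83 (adjusted p = 0.0259) and 0.69 (adjusted p = 0.0145), whereas median-ratio scaling gave 0.44 (adjusted p = 0.563) and 0.29 (adjusted p = 0.487).

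**Figure D4:**
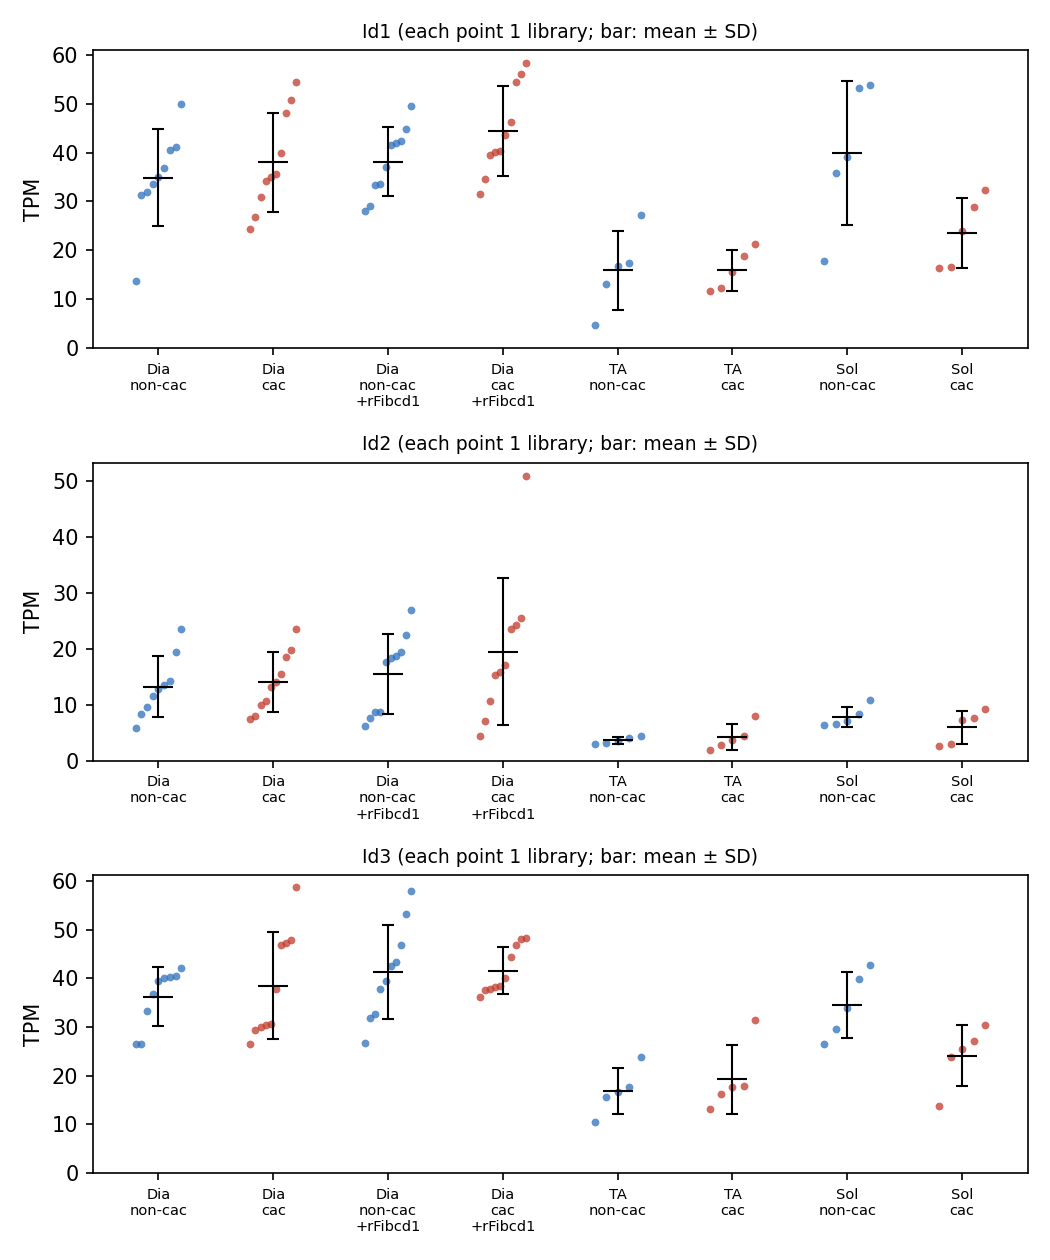
Levels of Id1, Id2 and Id3 in each library (vertical axis, TPM) for the 8 groups (horizontal axis), with the mean and SD. Cachectic and non-cachectic libraries overlap in every pair of groups, and 1 rFibcd1-treated cachectic diaphragm reaches 50.9 TPM of Id2.

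Id1 and Id3 varied together among libraries. Over the 39 diaphragm libraries the Spearman correlation of Id1 with Id3 was 0.70, whereas that of Id1 with Id2 was 0.21. Over all 59 libraries the correlation of Nog was 0.14 with Id1, 0.09 with Id2 and 0.13 with Id3, and 0.58 with Bmp4 and 0.49 with Smad1. Libraries share muscle, melanoma and scaling, so these are descriptions. By the same measure, among 8763 genes with a mean of at least 5 TPM, the genes most like Nog over the 59 libraries were Shisa2 (0.80), Map1lc3b (0.78), which encodes an autophagosome protein, Nr1h3 (0.77), a nuclear receptor of sterol metabolism, Lcn2 (0.76), an acute-phase protein, and Socs3 (0.76), an inhibitor of cytokine signalling.

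Treatment with rFibcd1 was compared with mock injection within each melanoma. None of the 10 genes was called in cachectic diaphragm (0.0447% of all genes were), in non-cachectic diaphragm (0.417% of all genes) or in the interaction of melanoma and treatment (0.0223% of all genes). At an unadjusted p under 0.05, 1 member in cachectic and 3 in non-cachectic diaphragm passed in limma, and 0 in the interaction. Of all 13426 genes tested, 1412 passed at that level in cachectic diaphragm, 2332 in non-cachectic diaphragm and 1180 in the interaction. With array weights 2 members were called in cachectic (Nog and Bmp4, 4.49% of all genes) and 5 in non-cachectic diaphragm (39.9% of all genes), and with the Dunn test 0. Nog was lower on the mean with rFibcd1 in both (14.3 ± 7.23 against 17.1 ± 5.25 TPM and 5.92 ± 1.62 against 7.52 ± 0.873 TPM), with log2 differences of -0.35 (95% interval -0.77 to 0.07) and -0.33 (-0.76 to 0.11). With array weights, which give less weight to libraries that deviate more, the Nog difference in cachectic diaphragm was -0.74 (adjusted p = 0.0327). Bmp4 differed by -0.28 and -0.25 (unadjusted p = 0.00982 and 0.0232, adjusted p = 0.336 and 0.266). The interaction for Nog was -0.02 (95% interval -0.63 to 0.58), and -0.44 with array weights (adjusted p = 0.340). Clock genes moved with the treatment: 6 of 7 were called for rFibcd1 against mock in non-cachectic diaphragm (Npas2 and Arntl higher, Per2, Per3, Ciart and Dbp lower) and none in cachectic diaphragm. They also moved with the melanoma. In diaphragm with rFibcd1 2 of the 7 were called higher and 2 lower (9.11% of all genes were called). In tibialis anterior 1 of the 6 tested was higher and 2 lower (60.2%), and in soleus 1 of 6 was higher and 3 lower (25.1%). In mock diaphragm only Nr1d1 was called, and it was lower (33.5%). With an index of these genes (Npas2 and Arntl minus the others) as a term the Nog difference of rFibcd1 against mock was -0.31 in cachectic and -0.13 in non-cachectic diaphragm, neither called. The Spearman correlation of Nog with this index was 0.75 in tibialis anterior, 0.15 in soleus and -0.29 in diaphragm. For Id1 and Id3 it was -0.70 and -0.61 in soleus, -0.37 and -0.09 in tibialis anterior, and 0.01 and 0.20 in diaphragm. The part of the clock in the melanoma effects of the limb muscles was not tested.

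Muscles were also compared with each other in non-cachectic mice. Diaphragm had higher levels than tibialis anterior for 8 of the 10 genes and lower levels for both receptors, all called (72.5% of all genes were). One of the 8, Bmp2, was below 1 TPM in each of the 5 tibialis anterior libraries and passed the filter through the other muscles, so that 9 calls remained among genes with a mean of at least 5 TPM. On TPM as deposited Bmp4 differed most, at 16.0 ± 1.84 TPM (SD, n = 9) in diaphragm and 3.37 ± 0.260 TPM (n = 5) in tibialis anterior (log2 1.96, SE 0.12), and Id2 next, at 13.2 ± 5.49 and 3.61 ± 0.592 TPM (log2 1.54, SE 0.28). Bmpr2 was lower in diaphragm, at 9.62 ± 0.872 against 17.1 ± 1.86 TPM (log2 -0.76, SE 0.10), and after median-ratio scaling Bmpr2 (-1.32) came before Id2 (1.06). The median of all genes in this comparison was 0.44, and median-ratio scaling kept 9 of the 10 calls with their signs, while Smad5 turned from 0.43 to -0.11 and was not called. Markers of other cell types were higher in diaphragm too: 8 of 8 endothelial, 6 of 6 fibroblast and 5 of 5 macrophage markers were called. In the same comparison 64% of all genes were called higher. Of 4 muscle cell genes 1 was called higher and 3 lower. The part of these cells in the levels was not tested.

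Between tibialis anterior and soleus 9 of 10 genes were called (69.5% of all genes were), with Bmpr2 higher in tibialis anterior and the other 8 lower, beside a median of -0.47 over all genes. The 8 include Bmp2, with the same limit, and 8 calls remained among genes with a mean of at least 5 TPM. Id1 averaged 15.9 ± 8.15 TPM in tibialis anterior and 39.9 ± 14.8 TPM in soleus (log2 -1.36, SE 0.32). Nog, at -0.56 (adjusted p = 0.00714), was -0.05 (adjusted p = 0.857) after median-ratio scaling, so its lower level in tibialis anterior was no more than that of the typical gene. That scaling also ended the call of Id2 (-0.40, adjusted p = 0.272), turned Smad5 to 0.13 (not called), moved Id1 to -0.77 and Bmpr2 from 0.50 to 1.10, and brought a call of Bmpr1a (0.89, adjusted p = 2.57e-06). Between diaphragm and soleus only Bmp4 (higher in diaphragm, log2 1.13, SE 0.12) and Bmpr2 (lower, log2 -0.27, SE 0.10) were called, that is 2 of 10 against 38.8% of all genes. The Bmpr2 call was lost without either of 2 non-cachectic soleus libraries (adjusted p = 0.0521 and 0.103). Id2 was called too with the block (0.58, adjusted p = 0.0438) and after median-ratio scaling (0.66, adjusted p = 0.0401), and with the block Bmpr1a for tibialis anterior against soleus (0.27, adjusted p = 0.0311). In diaphragm 2 of 8 endothelial, 5 of 6 fibroblast and 4 of 5 macrophage markers were called higher than in soleus (16.8% of all genes were). In tibialis anterior 8 of 8, 6 of 6 and 5 of 5 of these were called lower than in soleus (8625 of all 13501 genes tested were). The part of these cells was not tested.

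The other genes of the pathway were taken from fixed lists of ligands, receptors, antagonists, transducers and targets, 43 genes besides the members. In tibialis anterior 24 of them were tested, of which 12 were called higher and 1 lower, in a comparison where 56.4% of all genes were called higher and 3.78% lower. Of the 6 antagonists and modulators tested there, 4 were higher, beside those 56.4% of all genes: Nog, Nbl1, Chrd (chordin, which also binds BMP ligands) and Bmper. Nbl1 was at 20.2 against 8.30 TPM (log2 1.16, SE 0.18, adjusted p = 0.000899) and Chrd at 2.21 against 0.877 TPM (log2 0.72, adjusted p = 0.00917). The non-cachectic mean of Chrd lay below the 1 TPM of the filter, which the cachectic libraries alone can meet. Chrd may thus have been tested only through the group where it is high, and its place among the 4 has that limit. In mock diaphragm 5 of 11 antagonists and modulators were called, all higher (30.9% of all genes were called higher), with Chrdl2 (chordin-like) at 4.29 against 2.08 TPM (log2 0.78, SE 0.15, adjusted p = 0.000208). In diaphragm with rFibcd1 only Nog was called among the 11 (7.14% of all genes were called higher). In soleus none of the 9 tested was higher and Smoc2 was lower (7.54% of all genes were called lower there). Of the 43 genes, 6 of the 31 tested in mock diaphragm were called higher and 0 lower. With rFibcd1 0 of 31 were called (9.11% of all genes were). In soleus 0 of the 28 tested were higher and 5 lower, among them the ligand Bmp5, beside 17.5% and 7.54% of all genes.

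Of the receptors and co-receptors, 6 of 11 were higher in tibialis anterior, close to the 56.4% of all genes. Bmpr1b, a type I receptor, went from 1.52 to 4.48 TPM (log2 1.08, SE 0.18, adjusted p = 0.00120) and Acvr2a, a type II receptor shared with activins, from 8.91 to 17.4 TPM (log2 0.82, adjusted p = 0.00760). In soleus the co-receptors Rgma and Rgmb were lower instead, beside 7.54% of all genes. Smad6, which inhibits BMP signalling inside the cell and is itself induced by it, fell in tibialis anterior (4.03 to 2.66 TPM, log2 -0.47, adjusted p = 0.0167) and in soleus (3.69 to 2.41 TPM, log2 -0.46, adjusted p = 0.0124), and was at 0.10 in mock diaphragm (adjusted p = 0.578). The target list thus held both directions in tibialis anterior, since the transcription factor gene Atoh8 rose from 4.88 to 15.1 TPM (log2 1.39, SE 0.32, adjusted p = 0.00556). Of the 8 target genes tested there, the other 6 were not called. The median over the tested target genes was 0.14, beside 0.41 over all genes.

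Genes of other cell types moved with the same contrast. In mock diaphragm 6 of 8 endothelial, 4 of 5 tested denervation and 2 of 5 macrophage markers were called higher (30.9% of all genes were). Their summed levels there were 204 to 278 TPM in non-cachectic against 238 to 354 TPM in cachectic mice for endothelial cells, 18.2 to 29.97 against 28.2 to 61.4 TPM for denervation and 32.2 to 67.0 against 43.02 to 164 TPM for macrophages. In tibialis anterior 6 of 8 endothelial markers were called higher and Kdr lower (56.4% of all genes were called higher), and their summed level was 106 to 141 TPM in non-cachectic and 142 to 304 TPM in cachectic mice. The summed level of 5 macrophage markers was 4.65 to 8.69 TPM against 7.33 to 51.0 TPM, and all 4 of those tested were called higher. Of the 6 denervation genes 3 were tested there, Myog and Chrna1 were called higher, and the summed level was 10.3 to 15.9 TPM against 19.7 to 97.4 TPM. In soleus 2 of the 4 denervation genes tested, Myog and Runx1, were called higher (17.5% of all genes were), with overlapping sums of 48.2 to 72.0 and 65.3 to 127 TPM, and 3 of 6 fibroblast markers were lower (7.54% of all genes were). The endothelial markers Tek and Vwf and the macrophage marker Cd68 were called higher in soleus, and Kdr lower. Of the 6 fibroblast markers Dcn was called higher in mock diaphragm, and Pdgfra and Dcn in tibialis anterior, beside 30.9% and 56.4% of all genes. Satellite cell markers summed to 2.89 to 4.43 TPM in non-cachectic and 6.55 to 8.93 TPM in cachectic tibialis anterior, with Vcam1 and Chodl called higher. Of 4 myosin genes, Myh7 was called higher in cachectic mice in mock diaphragm, tibialis anterior and soleus, and Myh2 and Myh1 lower in tibialis anterior. In that muscle 3.78% of all genes were called lower. The part of these cells and of fibre type in the results was not tested. In whole muscle a change in the number of cells of a type and a change in RNA per cell cannot be told apart.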

How the data were processed

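RNA of diaphragm, tibialis anterior and soleus was sequenced in 59 samples. Per the study's methods, which describe diaphragm, the authors trimmed and filtered reads, aligned them to GRCm38 (mm10 in the submitters' processing notes) with CLC Genomics Workbench and deposited TPM values, 1 column per library. The annotation is not given in the sources used here, and the kit is described differently in the labels and the methods. Columns were placed in groups by name, as their numbers could not be tied to labelled replicates. The numbers recur between muscles and were used as a random block in an alternative for comparisons of muscles, since same-numbered libraries deviated together in 28 of 30 pairs (r above 0.1). The labels call the samples biological replicates without numbering the mice.

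Values were analysed as log2(TPM + 1) in R 4.3.3 with limma 3.58.1 (eBayes with trend, two-sided, Benjamini-Hochberg over all genes tested, threshold 0.05). Genes needed at least 1 TPM in as many samples as the smallest group of the fit. Diaphragm (39 libraries, 4 groups), tibialis anterior and soleus were fitted separately, and muscles were compared in the 6 groups without rFibcd1. The study's Kruskal-Wallis and Dunn tests were an alternative. The procedure was tested on simulated data. Alternatives were another pseudocount, other filters, median-ratio scaling, array weights, terms for Pcna-ps2 state and clock genes, high-state libraries alone, only the groups compared, 1 fit of all libraries for the limb muscles, and leaving out each library. All 10 genes were analysed in every comparison in which they passed the filter. The members and lists were chosen with earlier results of these data known. Gene positions are from GENCODE M21 and promoters from RefSeq.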

Additional observations from a re-analysis of the deposited data

Results flagged for a closer look

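The melanoma effect differed between muscles by a tested contrast for 3 genes. For Nog the log2 difference was -1.21 for diaphragm against tibialis anterior, 1.17 for diaphragm against soleus and 2.38 for tibialis anterior against soleus. For Bmp4 it was -0.62 for diaphragm against tibialis anterior and 0.90 for tibialis anterior against soleus, and for Bmp2 it was 0.59 for tibialis anterior against soleus. Bmp2 failed the filter in tibialis anterior alone, and its difference was 0.41 (adjusted p = 0.0800) after median-ratio scaling.

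Of 80 sets of values (10 genes in 8 groups), 9 held a library far from the others of its group by Dixon's criterion, which chance alone flags in about 1 of 20 sets. In cachectic tibialis anterior 1 library had the highest Smad1 (11.1 TPM) and Id3 (31.5 TPM) values. One rFibcd1-treated cachectic diaphragm had 50.9 TPM of Id2 and another 13.3 TPM of Bmpr1a, the lowest of its group. The former library had 342 TPM of summed macrophage markers, the highest of its group, and the part of these cells in the Id2 value was not tested. The highest Bmp4 values were 20.1 TPM in non-cachectic mock diaphragm and 15.9 TPM in non-cachectic diaphragm with rFibcd1. Bmpr1a was 29.0 TPM in 1 non-cachectic mock diaphragm and 26.5 TPM in 1 non-cachectic tibialis anterior, and Smad5 was 17.4 TPM in 1 non-cachectic soleus.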

How the results depend on the processing

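With a replicate block by column number, chosen after seeing the data, members called for the melanoma effect went from 2 to 5 for diaphragm against tibialis anterior and from 3 to 7 for tibialis anterior against soleus, and stayed at 1 for diaphragm against soleus. Within a muscle the groups share no column number, so no block could be fitted there.

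Counts of members called are followed by the share of all genes called in the same fit. In mock diaphragm 3 members were called (33.5%), 5 with array weights (54.7%) or only the groups compared (50.1%), 4 with the Dunn test (40.5%), 2 with Pcna-ps2 state as a term (15.3%), and 0 in libraries with high Pcna-ps2 alone (5.69%), where Nog was 0.98 and Smad1 0.45 on the log2 scale. In diaphragm with rFibcd1 2 were called (9.11%), 1 with no filter (4.08%), with Pcna-ps2 state (10.1%) or clock genes (5.15%) as a term or with only the groups compared (2.61%), and 0 with the Dunn test or in libraries with high Pcna-ps2 alone, where 0 of all genes were. For rFibcd1 against mock, array weights called 2 in cachectic (4.49%) and 5 in non-cachectic diaphragm (39.9%), and only the groups compared called 3 in the latter (19.6%). In soleus 1 was called (25.1%), 4 after median-ratio scaling (28%) and 2 with the Dunn test (20%). For the effect in tibialis anterior against soleus a pseudocount of 0.1 called 5 (25.2%). Smad5 levels turned after median-ratio scaling, to 0.13 for tibialis anterior against soleus and -0.11 for diaphragm against tibialis anterior. The causes were not tested.

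With each library left out, members called ranged from 1 to 2 in diaphragm with rFibcd1, 1 to 3 in soleus, 1 to 4 for the effect in diaphragm against tibialis anterior, 3 to 5 for tibialis anterior against soleus and 1 to 3 for levels in diaphragm against soleus. With all libraries the shares of all genes called in these comparisons were 9.11%, 25.1%, 5.04%, 20.4% and 38.8%, in that order. The shares with a library left out are not given here, so these ranges are not read as a result about the members. Nog ranged from 0.97 to 1.13 in mock diaphragm and from 2.16 to 2.35 in tibialis anterior, called each time. Depth is unknown from TPM, so counting error could not be separated from the spread between mice.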
